A study of Mus musculus with 11 samples.

Results

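Receptors of the tumour necrosis factor (TNF) family and the lymphotoxins were described in regulatory T cells (Tregs) of fat and spleen. The genes were taken by symbol from a list of 9, namely the receptors Tnfrsf1a, Tnfrsf1b, Tnfrsf4, Tnfrsf9, Tnfrsf14, Tnfrsf18 and Fas and the ligands Lta and Ltb. All 9 had a row among the 10992 genes of the table, and all 9 were among the 10429 genes with an RPKM (reads per kilobase of gene, scaled to library size) of at least 1 in at least 2 libraries. The groups were VAT KO (3 libraries) and VAT WT (3) from visceral adipose tissue, and spleen KO (2, replicates 2 and 3) and spleen WT (2, replicates 2 and 3). KO stands for Foxp3-YFPcre Srebf2-flox/flox and WT for Foxp3-YFPcre Srebf2-WT/WT, so that every mouse carried the Foxp3-driven Cre and the deletion of Srebf2 was directed to cells that express Foxp3. Srebf2 encodes SREBP2, the transcription factor of cholesterol synthesis and uptake. All mice were males aged 25 weeks, and the cells had been sorted as live Foxp3+ CD4 T cells. Nothing in the labels states that libraries of a group are from different mice, so the tests measure the spread between libraries.

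TNF family receptors are surface proteins that are bound by trimeric ligands and pass the signal on through TRAF adaptors to NF-kB or, for receptors with a death domain, to caspases. Tnfrsf4 (OX40), Tnfrsf9 (4-1BB), Tnfrsf18 (GITR) and Tnfrsf1b (TNFR2) are costimulatory receptors that are characteristic of activated and tissue-resident Tregs. Lta and Ltb encode lymphotoxin alpha and beta, which together form the membrane ligand of the lymphotoxin beta receptor and act in the formation of lymphoid organs, while lymphotoxin alpha alone is secreted and binds the TNF receptors.

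The libraries were checked first. Srebf2 stood at 0.263, 0.6 and 1.23 RPKM in VAT KO, against 16.6, 15.6 and 30.5 RPKM in VAT WT, and at 2.59 and 1.59 RPKM in spleen KO, against 10.5 and 23.2 RPKM in spleen WT, so that each library matched its label. All 8 genes of a T cell and Treg list were measured, and their summed level was 1066 to 1127 RPKM in VAT KO, 1089 to 1118 in VAT WT, 972.1 to 976.1 in spleen KO and 967.5 to 1218 in spleen WT. Single genes of the list differed by tissue at the threshold given below. In KO 2 of 8 were called higher and 2 lower in VAT (14.6% of all genes were called). In WT 3 were higher and 3 lower (26.1% of all genes). Foxp3 averaged 15.2 RPKM in VAT KO, 15.3 in VAT WT, 8.34 in spleen KO and 7.83 in spleen WT. Ctla4 was also higher in VAT (log2 fold changes 1.59 in KO and 1.76 in WT), while Cd3d was lower (-0.68 and -1.025). Read depth is unknown, so no counting error is given. Spleen WT replicates 2 and 3 correlated at 0.932 across genes, against medians of 0.969 to 0.972 within the other groups, and spleen results that change when 1 of them is left out are given without it.

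Levels differed widely among the members, and RPKM can be set side by side between genes because it is scaled by length. Tnfrsf4 was the most abundant member in VAT, at 312 ± 7.21 RPKM in VAT KO and 293 ± 15.2 RPKM in VAT WT (SD, n = 3 each). Ltb was the most abundant in spleen, at 280.0 ± 2.48 RPKM in spleen KO and 341 ± 84.6 RPKM in spleen WT (SD, n = 2 each). Tnfrsf14 was the least abundant in every group, at means of 2.13 RPKM in VAT KO, 1.87 in VAT WT, 7.11 in spleen KO and 5.64 in spleen WT. Together the 9 genes summed to 780.2 to 829.4 RPKM in VAT KO, 760.7 to 832.3 in VAT WT, 830.4 to 902.9 in spleen KO and 915.8 to 1072 in spleen WT. The makeup of this sum differed by tissue. Tnfrsf4 and Tnfrsf18 held 38.2% to 38.9% and 22.9% to 24.2% of it in VAT KO, against 19.6% to 20.4% and 11.9% to 13.0% in spleen KO.

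**Figure D1:**
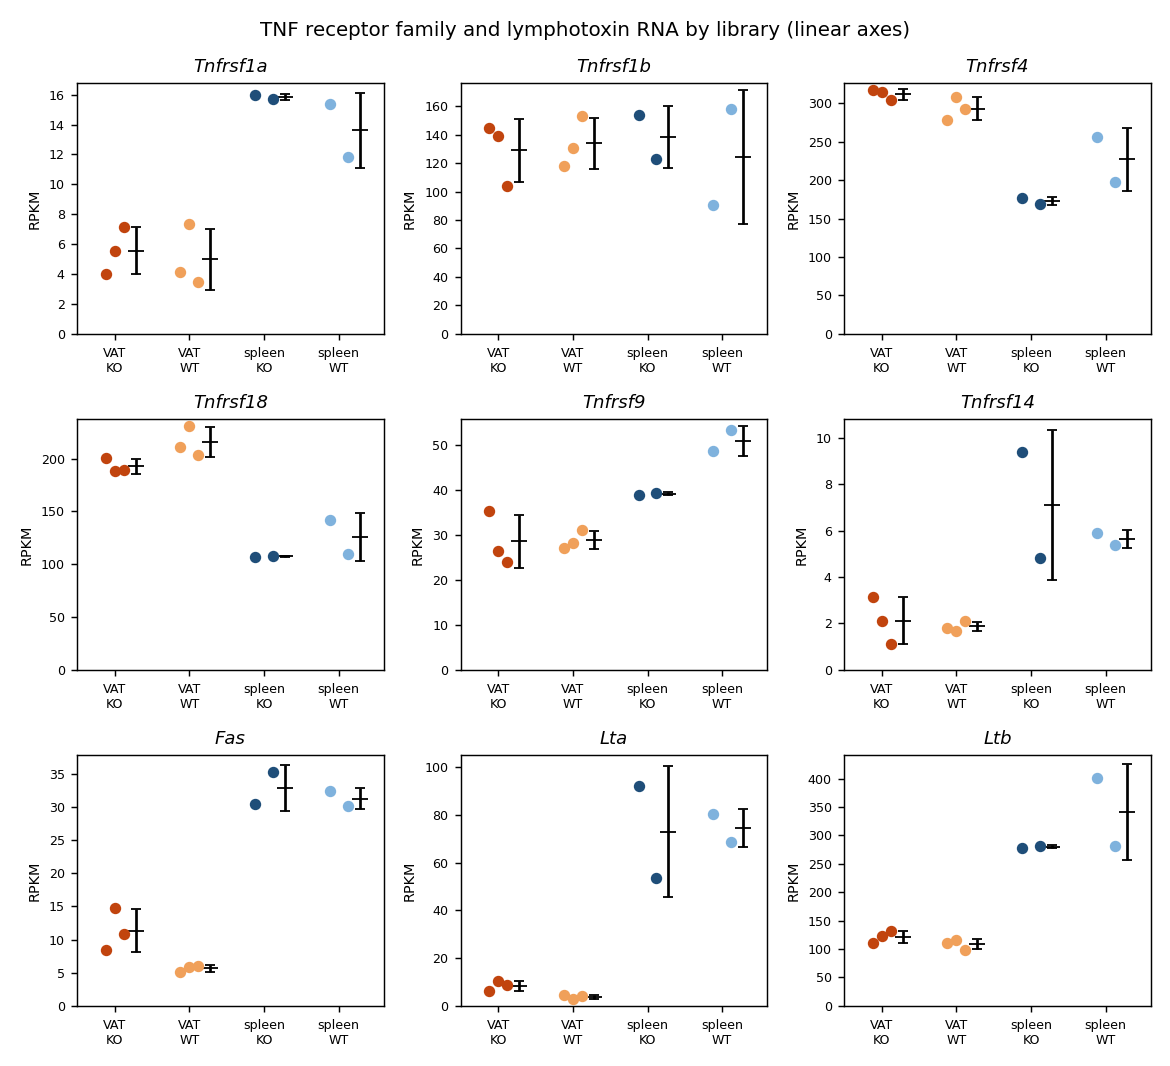
RPKM of the 9 members on linear axes that start at 0, with 1 point per library and the mean and SD of each group beside its points (n = 3 in VAT, n = 2 in spleen). Fas and Lta are lowest in VAT WT, where Lta stands at 2.77 to 4.38 RPKM, higher in VAT KO, at 6.28 to 10.6 RPKM, and far higher in both spleen groups.

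The comparison of VAT with spleen asks how the family differs between fat and lymphoid Tregs of the same genotype. Most members differed in RNA. Tnfrsf18 (GITR) was higher in VAT in both genotypes and Tnfrsf4 (OX40) in KO. Lta, Ltb, Fas, Tnfrsf1a (TNFR1) and Tnfrsf14 (HVEM) were lower in VAT. Fold changes are differences of log2(RPKM + 1), given with their standard error, and a gene was called at a limma p under 0.05 after Benjamini-Hochberg adjustment over all 10429 genes. Between VAT KO and spleen KO, 7 of 9 members were called, 2 higher and 5 lower, where 14.6% of all genes tested were called (7.65% higher and 6.94% lower). Between VAT WT and spleen WT, 7 of 9 were called, 1 higher and 6 lower, where 26.1% of all genes tested were called (10.7% higher and 15.4% lower). The median log2 fold change of the 9 was -1.20 between the KO groups and -1.21 between the WT groups, beside -0.09 and -0.12 over all genes tested. In each genotype 8 of 9 members had groups that did not overlap, against 50.4% of all genes in KO and 49.1% in WT.

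**Figure D2:**
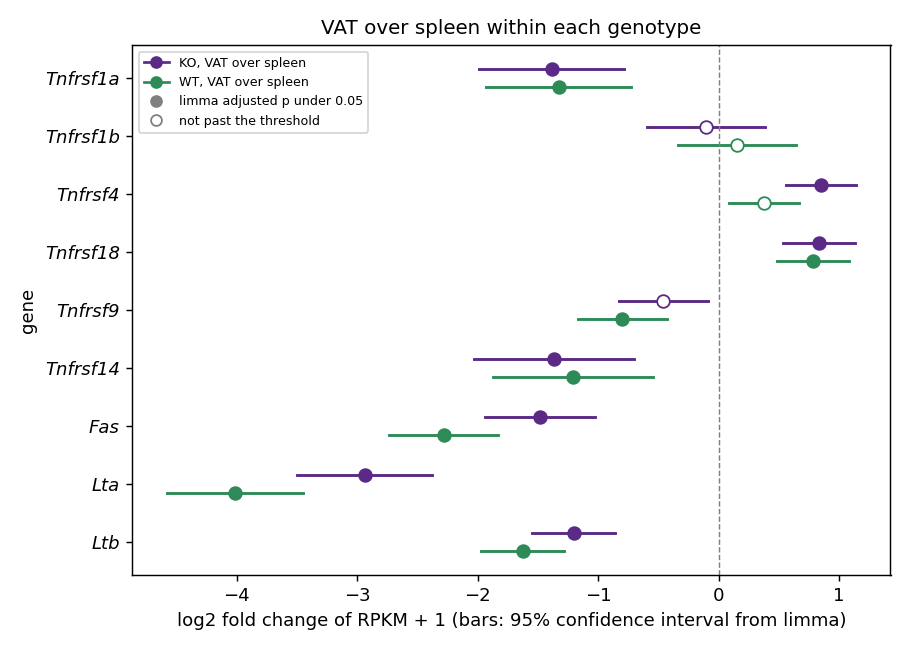
Log2 fold change of VAT over spleen for each member, in KO and in WT libraries, with 95% confidence intervals from limma; filled points passed the adjusted threshold. Lta lies farthest to the left at -2.94 in KO and -4.01 in WT, and Tnfrsf4 and Tnfrsf18 lie to the right of 0.

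Lta showed the largest tissue difference. It is on chromosome 17 (35203165 to 35205578, minus strand, mm10) and stood at 6.28, 10.6 and 8.58 RPKM in VAT KO, against 92.3 and 53.6 RPKM in spleen KO. It stood at 4.38, 2.77 and 3.99 RPKM in VAT WT, against 80.2 and 68.8 RPKM in spleen WT. Every spleen library was thus above every VAT library, and the 3 VAT WT libraries were the lowest. The mean was 8.61-fold lower in VAT than in spleen for KO and 20.1-fold lower for WT. The log2 fold changes were -2.94 ± 0.26 (adjusted p = 7.13e-06) in KO and -4.01 ± 0.26 (adjusted p = 2.83e-07) in WT.

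Ltb, whose product anchors lymphotoxin to the membrane, lies on the same chromosome (35194507 to 35196305, plus strand). It stood at 110, 122 and 132 RPKM in VAT KO, against 278 and 282 RPKM in spleen KO. In VAT WT it stood at 111, 116 and 98.8 RPKM, against 401 and 281 RPKM in spleen WT. VAT and spleen did not overlap, while within VAT the genotypes did. The log2 fold changes were -1.20 ± 0.16 (adjusted p = 0.000227) in KO and -1.62 ± 0.16 (adjusted p = 1.2e-05) in WT.

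Tnf, the TNF gene itself, lies between the lymphotoxin genes, 3061 bases from Ltb and 1157 bases from Lta, and went the other way. It stood at 32.6, 38.2 and 30.2 RPKM in VAT KO, against 9.54 and 7.61 RPKM in spleen KO, and at 37.5, 29.5 and 35.7 RPKM in VAT WT, against 13.2 and 10.1 RPKM in spleen WT. Its log2 fold changes were 1.86 ± 0.18 (adjusted p = 2.01e-05) in KO and 1.49 ± 0.18 (adjusted p = 8.59e-05) in WT. The Lta and Ltb annotations overlap the microRNA genes Mir6974 and Mir6973a, and the library kit does not mark strand.

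The bases before the start sites of Lta, Ltb and Fas, the members with the largest tissue differences in WT, and before a downstream start site of Tnfrsf9, which the motif search marked, are shown from RefSeq (GRCm38.p6, which is mm10; 250 bases each, read on the gene's own strand). The Lta start site used lies inside the gene span, which ends at 35205578 on the minus strand. Most of the Lta window is thus sequence within the gene. Capitals mark a match to the kappa B motif (GGG, any 2 bases, TTTCC), a binding sequence of NF-kB, on either strand.
Lta chr17:35205352-35205601 (-): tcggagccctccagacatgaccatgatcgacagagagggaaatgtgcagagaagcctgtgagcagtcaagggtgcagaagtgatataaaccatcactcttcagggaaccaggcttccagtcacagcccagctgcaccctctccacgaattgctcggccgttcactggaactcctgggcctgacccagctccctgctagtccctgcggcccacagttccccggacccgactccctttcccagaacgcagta
Ltb chr17:35194257-35194506 (+): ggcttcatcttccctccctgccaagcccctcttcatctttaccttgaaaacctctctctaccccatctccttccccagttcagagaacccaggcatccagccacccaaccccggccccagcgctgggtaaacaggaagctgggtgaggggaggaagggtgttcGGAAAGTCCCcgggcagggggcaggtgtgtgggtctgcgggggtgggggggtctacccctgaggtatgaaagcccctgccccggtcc
Fas chr19:34290409-34290658 (+): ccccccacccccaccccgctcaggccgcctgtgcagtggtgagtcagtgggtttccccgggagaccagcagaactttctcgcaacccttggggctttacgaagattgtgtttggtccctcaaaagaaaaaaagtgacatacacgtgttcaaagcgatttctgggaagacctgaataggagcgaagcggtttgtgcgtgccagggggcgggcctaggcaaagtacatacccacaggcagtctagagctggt
Tnfrsf9 chr4:150927749-150927998 (+): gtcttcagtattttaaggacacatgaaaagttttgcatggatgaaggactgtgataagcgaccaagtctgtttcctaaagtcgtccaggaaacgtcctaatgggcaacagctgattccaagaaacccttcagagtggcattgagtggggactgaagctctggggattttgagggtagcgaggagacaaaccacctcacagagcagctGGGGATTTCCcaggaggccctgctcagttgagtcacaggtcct
The search covered 250 bases before to 50 bases after each of the 10 start sites that RefSeq gave for the 9 members. Those of Lta, Fas, Tnfrsf4 and Tnfrsf14 lie inside the gene spans, so the bases before them are partly or wholly within the gene. Sequence before the outer end of these spans was thus searched in part or, for Tnfrsf14, not at all. The kappa B letters were found for 2 of 9 members, from position -87 of Ltb on the minus strand and from position -43 of the downstream start site of Tnfrsf9, counted back from the start site. They were found in 1.63% of all 32851 promoters. The sterol element TCACNCCAC, searched on both strands because SREBP2 binds such letters, was found for 0 of 9 members and in 1.24% of all promoters. A match of letters does not show binding, and its absence from these windows says nothing of the factor.

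Fas, the death receptor that triggers caspase-8 when bound by Fas ligand, was lower in VAT in both genotypes. It is on chromosome 19 (34290647 to 34327775, plus strand) and stood at 8.38, 14.8 and 10.8 RPKM in VAT KO, against 30.4 and 35.3 RPKM in spleen KO. It stood at 5.12, 5.81 and 5.98 RPKM in VAT WT, against 32.3 and 30.1 RPKM in spleen WT. The spleen libraries lay in a narrow band above all VAT libraries. Its log2 fold changes were -1.49 ± 0.21 (adjusted p = 0.000385) in KO and -2.28 ± 0.21 (adjusted p = 6.62e-06) in WT.

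Tnfrsf1a, the TNF receptor with a death domain (TNFR1; chromosome 6, 125349723 to 125362483, plus strand), was lower in VAT too. It stood at 4.02, 5.56 and 7.13 RPKM in VAT KO, against 16.0 and 15.7 RPKM in spleen KO, and at 4.16, 7.33 and 3.50 RPKM in VAT WT, against 15.4 and 11.8 RPKM in spleen WT. VAT over spleen gave -1.39 ± 0.28 (adjusted p = 0.00487) in KO and -1.33 ± 0.28 (adjusted p = 0.00399) in WT. Tnfrsf1b, which encodes TNFR2, the TNF receptor without a death domain (chromosome 4, 145212368 to 145246870, minus strand), did not pass in any comparison. It stood at 145, 139 and 104 RPKM in VAT KO, against 118, 131 and 153 RPKM in VAT WT, and at 154 and 123 RPKM in spleen KO, against 90.8 and 158 RPKM in spleen WT. All 4 groups overlapped, and the widest gap was that between the 2 spleen WT libraries. The 95% interval of its VAT over spleen difference ran from -0.59 to 0.39 log2 units in KO and from -0.34 to 0.64 in WT.

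Tnfrsf4 and Tnfrsf18 are neighbours on chromosome 4, both on the plus strand (156013595 to 156016613 and 156026322 to 156028894), with 9708 bases between them. The RNA of Tnfrsf18, whose product is GITR, was higher in VAT in both genotypes. Tnfrsf18 stood at 201, 188 and 189 RPKM in VAT KO, against 107 and 108 RPKM in spleen KO, and at 211, 231 and 204 RPKM in VAT WT, against 142 and 110 RPKM in spleen WT. This gave log2 fold changes of 0.83 ± 0.14 (adjusted p = 0.00119) in KO and 0.78 ± 0.14 (adjusted p = 0.00124) in WT. No spleen library reached a VAT library. The span of Tnfrsf18 overlaps that of Gm16008, and the span of Tnfrsf4 overlaps that of Sdf4, so reads may be shared without strand.

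Tnfrsf4, whose product OX40 is bound by OX40 ligand, stood at 317, 315 and 304 RPKM in VAT KO, against 177 and 169 RPKM in spleen KO, a log2 fold change of 0.85 ± 0.13 (adjusted p = 0.000894). In VAT WT it stood at 278, 309 and 292 RPKM, against 256 and 198 RPKM in spleen WT. The WT groups did not overlap either, but the WT log2 fold change of 0.38 ± 0.13 did not pass (adjusted p = 0.0535). It passed without spleen WT replicate 2 (0.56, adjusted p = 0.00385), which leaves 1 spleen WT library, and its adjusted p ranged from 0.00385 to 0.24 over the alternatives. In order of level, VAT KO and VAT WT overlapped at the top, spleen WT followed, and spleen KO was lowest; of these neighbours, neither VAT WT and spleen WT nor spleen WT and spleen KO differed past the threshold.

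Tnfrsf9, whose product 4-1BB is a costimulatory receptor induced by activation (chromosome 4, 150920155 to 150946104, plus strand), was lower in VAT in WT. It stood at 35.3, 26.4 and 24.1 RPKM in VAT KO, against 39.0 and 39.4 RPKM in spleen KO, and at 27.2, 28.3 and 31.2 RPKM in VAT WT, against 48.7 and 53.4 RPKM in spleen WT. The log2 fold change was -0.46 ± 0.17 (adjusted p = 0.0924) in KO and -0.80 ± 0.17 (adjusted p = 0.00434) in WT. It passed in KO without VAT KO replicate 1 (-0.62, adjusted p = 0.0333). The difference between the genotypes did not pass (interaction 0.34 ± 0.24, adjusted p = 0.797).

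Tnfrsf14, which encodes HVEM, the partner of BTLA and LIGHT (chromosome 4, 154918487 to 154928620, minus strand), was lower in VAT at low levels. It stood at 3.15, 2.10 and 1.13 RPKM in VAT KO, against 9.40 and 4.81 RPKM in spleen KO, and at 1.81, 1.69 and 2.10 RPKM in VAT WT, against 5.90 and 5.37 RPKM in spleen WT. The log2 fold changes were -1.37 ± 0.31 (adjusted p = 0.00922) in KO and -1.21 ± 0.31 (adjusted p = 0.012) in WT. The KO call was lost without spleen KO replicate 2 (-0.95, adjusted p = 0.146), and the WT call without spleen WT replicate 2 (-1.15, adjusted p = 0.0645). Each of these leaves 1 spleen library in its group.

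Marker genes of tissue handling and of other cells were summed beside these tissue differences. Some of the sums differed by tissue, and those of B cells overlapped. All 13 of 13 genes of an immediate early and digestion list were called higher in VAT in both genotypes, with medians of 4.12 log2 units in KO and 4.90 in WT. They summed to 6130 to 6471 RPKM in VAT KO, 6945 to 7814 in VAT WT, 579.9 to 700.1 in spleen KO and 636.6 to 741.2 in spleen WT. B cells, which also make lymphotoxins, had 8 of 12 markers in the table, and these summed to 60.14 to 119.4 RPKM in VAT KO, 63.0 to 222.7 in VAT WT, 104.8 to 137.5 in spleen KO and 103.8 to 136.6 in spleen WT. The largest part of these sums was Cd74, at means of 46.3, 61.3, 72.7 and 77.6 RPKM in the same order. The B cell marker Ms4a1 averaged 0.848 RPKM in VAT KO, 1.62 in VAT WT, 1.11 in spleen KO and 0.874 in spleen WT. Of the B cell markers, H2-Eb1 was called higher in VAT (1.25 in KO and 1.71 in WT, limma adjusted p = 0.0384 and 0.00483). Cd22 was called lower in VAT in KO (-2.07, limma adjusted p = 0.0305). Of 16 myeloid markers 4 were in the table, and they summed to 20.25 to 45.6 RPKM in VAT KO, 12.31 to 15.22 in VAT WT, 182.6 to 186.0 in spleen KO and 179.4 to 240.5 in spleen WT. Most of these sums was Ctss, at means of 35.4, 12.9, 182.3 and 205.6 RPKM in the same order, while the macrophage markers Csf1r and Adgre1 averaged under 0.2 RPKM in both VAT groups and 0.438 to 1.31 RPKM in the spleen groups. Of 9 markers of CD8 T, NK and gamma-delta T cells 3 were in the table, and they summed to 104.3 to 129.0 RPKM in VAT KO, 74.72 to 190.6 in VAT WT, 35.02 to 35.29 in spleen KO and 36.3 to 61.39 in spleen WT. Most of these sums was Nkg7, at means of 109.7, 104.3, 18.2 and 33.3 RPKM in the same order. The other 2 were lower in VAT and not called, with Cd8b1 at means of 9.16, 10.9, 16.3 and 14.4 RPKM and Cd8a at 0.57, 0.87, 0.68 and 1.18 RPKM. Of 10 markers of stroma and endothelium, Vim and Pecam1 were in the table and summed to 215.5 to 234.0 RPKM in VAT KO, 244.5 to 313.2 in VAT WT, 89.61 to 99.99 in spleen KO and 89.61 to 95.98 in spleen WT. Vim, which T cells also express, was higher in VAT (1.63 in KO and 1.96 in WT, limma adjusted p = 4.89e-06 and 6.62e-07), and Pecam1 was lower (-1.25 and -1.85, limma adjusted p = 0.0157 and 0.000878). The part of these cells and of tissue handling in the results was not tested. In bulk RNA, fewer cells that express a gene and less RNA of it per cell cannot be told apart.

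The comparison of KO with WT asks what loss of Srebf2 changed. No member passed in either tissue. In VAT, Fas and Lta stood apart from the other members. Each was higher in all 3 VAT KO libraries than in all 3 VAT WT libraries, with means 2.01-fold and 2.28-fold higher, and neither passed the adjusted threshold. Limma called 0 of 9 members between VAT KO and VAT WT (2 at an unadjusted p under 0.05), where 0.422% of all genes tested were called and 7.35% had an unadjusted p under 0.05. The median log2 fold change of the 9 was 0.09, beside 0.02 over all genes.

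Fas averaged 11.3 ± 3.24 RPKM in VAT KO and 5.63 ± 0.46 RPKM in VAT WT (SD, n = 3 each), from the library values given above. The log2 fold change was 0.86 ± 0.19, with a 95% interval from 0.46 to 1.27 (limma adjusted p = 0.0902), and by p it ranked 62 among all genes. It passed without VAT KO replicate 1 (1.04, adjusted p = 0.0419) and with array weights (0.87, adjusted p = 0.0405), and its adjusted p otherwise reached 0.434. Lta averaged 8.47 ± 2.14 RPKM in VAT KO and 3.71 ± 0.84 RPKM in VAT WT (SD, n = 3 each). Its log2 fold change was 1.00 ± 0.23, with a 95% interval from 0.50 to 1.5 (limma adjusted p = 0.126), ranked 77 by p. Over the alternatives its adjusted p ran from 0.0574 to 0.585, so that Lta passed in none of them. The comparisons of VAT KO with VAT WT and of VAT WT with spleen WT share the VAT WT libraries.

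Markers of other cells and of handling differed within VAT too, in both directions. Ctss, a lysosomal protease of antigen-presenting cells that is also found in lymphocytes, rose in VAT KO against VAT WT (log2 fold change 1.31 ± 0.25, limma adjusted p = 0.0449), and the myeloid sum was 20.25 to 45.6 RPKM in VAT KO, against 12.31 to 15.22 RPKM in VAT WT. The other 3 genes of that sum were low: Fcer1g averaged 1.46 ± 2.16 RPKM in VAT KO and 0.785 ± 0.32 RPKM in VAT WT (SD, n = 3 each), and Csf1r and Adgre1 stood at means of 0.128 and 0.155 RPKM in VAT KO and 0.0557 and 0.145 RPKM in VAT WT. All 8 B cell markers had a log2 fold change below 0 (median -0.52), as had 2 of 3 CD8, NK and gamma-delta T cell markers, and none of these passed. VAT WT replicate 2 had the highest sums of both lists, at 222.7 and 190.6 RPKM. The B cell sum was 101.2 and 63 RPKM in VAT WT replicates 1 and 3, and 60.14 to 119.4 RPKM in VAT KO. The sum of the other list was 82.86 and 74.72 RPKM in VAT WT replicates 1 and 3, and 104.3 to 129 RPKM in VAT KO. The endothelial marker Pecam1 averaged 10.4 ± 1.52 RPKM in VAT KO and 5.63 ± 1.55 RPKM in VAT WT (SD, n = 3 each; 0.80 ± 0.28, limma adjusted p = 0.435), while Vim differed by -0.35 ± 0.12 (limma adjusted p = 0.453), and the sum of both was 215.5 to 234.0 RPKM in VAT KO, against 244.5 to 313.2 RPKM in VAT WT. The immediate early and digestion sum given above was lower in VAT KO without overlap, and 11 of its 13 genes had a log2 fold change below 0 (median -0.30), with Jund at -0.41 ± 0.13 (limma adjusted p = 0.375) and Zfp36 at -0.38 ± 0.12 (limma adjusted p = 0.413). The part of these cells and of handling in the Fas and Lta values was not tested.

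The other 7 members lay near 0 in VAT. Tnfrsf18 was the only further member whose groups did not overlap, at 193 ± 6.94 RPKM in VAT KO and 215 ± 14.2 RPKM in VAT WT (SD, n = 3 each; log2 fold change -0.16 ± 0.12, limma adjusted p = 0.95). Groups that did not overlap were thus found for 3 of 9 members, against 15.1% of all genes. The log2 fold changes were 0.16 for Tnfrsf1a, 0.16 for Ltb, 0.09 for Tnfrsf4, 0.07 for Tnfrsf14, -0.03 for Tnfrsf9 and -0.06 for Tnfrsf1b, with limma adjusted p-values of 0.966 and above. Their 95% intervals reached at most 0.70 up, for Tnfrsf1a, and -0.52 down, for Tnfrsf14, in log2 units.

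**Figure D3:**
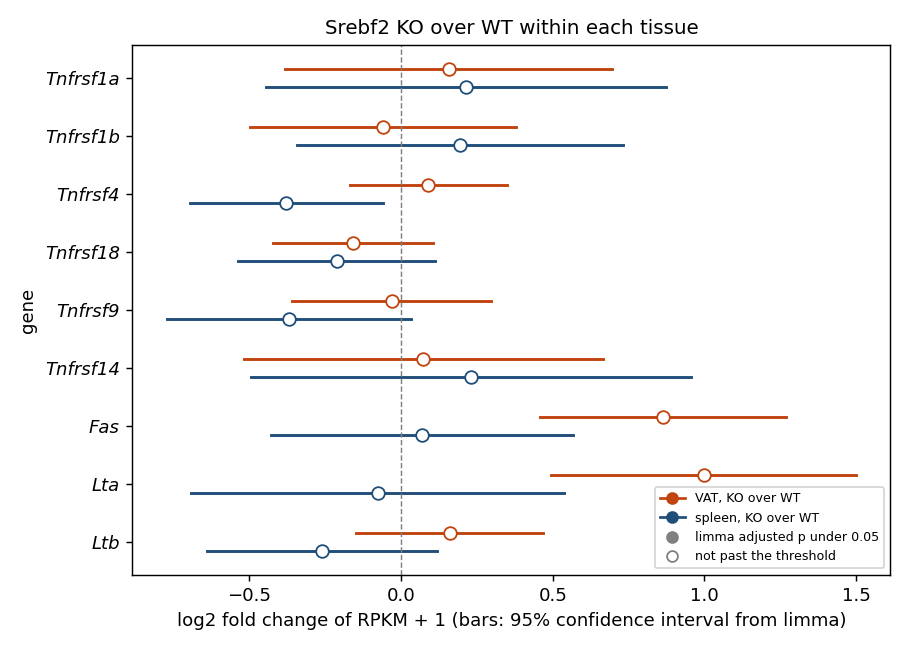
Log2 fold change of KO over WT for each member in VAT and in spleen, with 95% confidence intervals from limma; open points did not pass the adjusted threshold. Fas (0.86) and Lta (1.00) in VAT lie to the right with intervals above 0, and no point is filled.

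In spleen, limma called 0 of 9 members between KO and WT, and 0% of all genes tested were called. At an unadjusted p under 0.05 there was 1 member, Tnfrsf4, against 8.37% of all genes. Tnfrsf4 averaged 173 ± 5.43 RPKM in spleen KO and 227 ± 41.3 RPKM in spleen WT (SD, n = 2 each), a log2 fold change of -0.38 ± 0.15 with a 95% interval from -0.69 to -0.06 (limma adjusted p = 0.594). Tnfrsf9 averaged 39.2 ± 0.32 RPKM in spleen KO and 51.0 ± 3.32 RPKM in spleen WT (SD, n = 2 each; -0.37 ± 0.19, limma adjusted p = 0.608). The spleen groups did not overlap for 4 of 9 members, Tnfrsf1a higher and Tnfrsf4, Tnfrsf9 and Tnfrsf18 lower in KO, against 32.6% of all genes. The remaining changes were 0.23 for Tnfrsf14, 0.21 for Tnfrsf1a, 0.20 for Tnfrsf1b, 0.07 for Fas, -0.08 for Lta, -0.21 for Tnfrsf18 and -0.26 for Ltb, with limma adjusted p-values from 0.677 to 0.93.

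The spleen values of Tnfrsf4, Ltb and Tnfrsf18 depended on which spleen WT library was used. Without spleen WT replicate 3, Tnfrsf4 stood at -0.56, Ltb at -0.52 and Tnfrsf18 at -0.40. That fit rests on spleen WT replicate 2, where all of these genes were higher than in replicate 3. Replicate 2 had the largest summed RPKM of the 10 libraries (210778, others 185319 to 198811). It also had the most genes at 0 RPKM (43, others 4 to 18). Without spleen WT replicate 2, Tnfrsf4 stood at -0.19, Ltb at -0.0061 and Tnfrsf18 at -0.03. Each of these fits leaves 1 spleen WT library, which is assumed to vary like the other groups.

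Whether the change with genotype differed between the tissues was tested as the interaction. It called 0 of 9 members and 0% of all genes tested (3 members at an unadjusted p under 0.05, and 7.08% of all genes). The change in VAT exceeded that in spleen by 1.08 ± 0.37 log2 units for Lta (limma adjusted p = 0.632), by 0.80 ± 0.30 for Fas (0.65 adjusted) and by 0.47 ± 0.19 for Tnfrsf4 (0.684 adjusted), so a difference between the tissues was not shown. Without spleen WT replicate 3, which leaves replicate 2 alone in that group, the interaction was 0.65 for Tnfrsf4 and 0.68 for Ltb. With all libraries it was 0.47 and 0.42. Averaged over both tissues, limma called 0 of 9 members for KO against WT (0.0767% of all genes tested), with Fas at 0.47 ± 0.15 (adjusted p = 0.454) and Lta at 0.46 ± 0.18 (adjusted p = 0.518).

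Of the 21 other receptors of the family in a list, 11 were analysed here. Of these 3 were higher and 3 lower in VAT KO than in spleen KO, and 3 higher and 4 lower in VAT WT than in spleen WT, where 14.6% of all genes were called in KO and 26.1% in WT. Cd27, a costimulatory receptor of resting and memory lymphocytes, stood at 59.6, 67.3 and 68.8 RPKM in VAT KO, against 122 and 107 RPKM in spleen KO, and at 53.9, 55.7 and 48.5 RPKM in VAT WT, against 132 and 119 RPKM in spleen WT (log2 fold changes -0.80 ± 0.14, adjusted p = 0.0017, and -1.24 ± 0.14, adjusted p = 3.31e-05). The other 3 named by smallest p kept their direction in both genotypes. Tnfrsf11a, the receptor RANK, was higher in VAT (1.75 in KO and 1.54 in WT), as was Tnfrsf12a, the receptor of TWEAK (1.26 and 1.42), while Relt was lower (-1.42 and -1.26). Levels of the 2 higher genes were low. Tnfrsf11a averaged 3.49 RPKM in VAT KO, 2.38 in VAT WT, 0.33 in spleen KO and 0.14 in spleen WT. Tnfrsf12a averaged 3.67, 4.83, 0.96 and 1.29 RPKM in the same order. Between the genotypes 0 of 11 passed in either tissue. In VAT the smallest p-values were those of Tnfrsf25, the receptor DR3, at -0.33 ± 0.12 (limma adjusted p = 0.475) and of Cd27 at 0.30 ± 0.12 (limma adjusted p = 0.566). In spleen they were those of Tnfrsf8, which encodes CD30, at -0.90 ± 0.27 (limma adjusted p = 0.549) and of Tnfrsf26 at 0.38 ± 0.21 (limma adjusted p = 0.627).

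Of 17 ligands and HVEM partners, 11 were in the table and 10 passed the filter on low values. Of these 3 were higher and 3 lower in VAT than in spleen, in KO as in WT, beside the same 14.6% and 26.1% of all genes. Btla, an inhibitory receptor that HVEM binds, was lower in VAT, like its partner Tnfrsf14. It stood at 6.53, 8.17 and 9.36 RPKM in VAT KO, against 24.4 and 23.1 RPKM in spleen KO, and at 3.95, 4.51 and 4.20 RPKM in VAT WT, against 22.2 and 25.7 RPKM in spleen WT (log2 fold changes -1.47 and -2.25, adjusted p = 0.00015 and 2.28e-06). Cd40lg, the ligand of CD40, was higher in VAT (1.30 and 1.63), and Tnfsf8, the ligand of CD30, was lower (-1.25 and -1.49). None of the 10 passed between the genotypes in either tissue. In VAT, Btla stood at 8.02 ± 1.42 RPKM in KO and 4.22 ± 0.28 RPKM in WT (SD, n = 3 each; 0.78 ± 0.17, limma adjusted p = 0.0831). Fasl, the ligand of Fas, stood at 8.10, 18.0 and 21.3 RPKM in VAT KO and 2.62, 8.10 and 8.15 RPKM in VAT WT (1.23 ± 0.39, adjusted p = 0.363), and the groups touched: the lowest KO library, at 8.101 RPKM, lay below the highest WT library. In spleen, Tnfsf9, the ligand of 4-1BB, stood at 4.86 and 27.9 RPKM in KO and 3.78 and 3.37 RPKM in WT (1.51 ± 0.53, limma adjusted p = 0.582), a difference carried by spleen KO replicate 3, and Cd40lg differed by 0.50 ± 0.18 (limma adjusted p = 0.593).

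**Figure D4:**
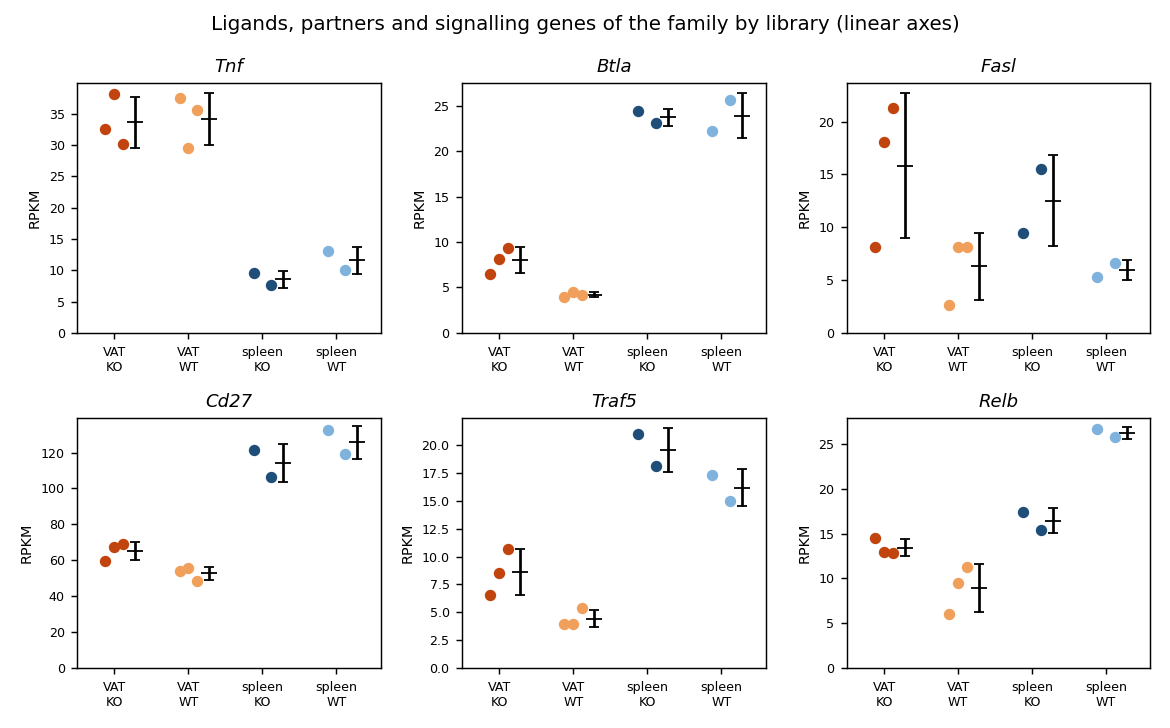
RPKM of ligands, partners and signalling genes of the family on linear axes that start at 0, with 1 point per library and the mean and SD of each group (n = 3 in VAT, n = 2 in spleen). Tnf is higher in VAT, while Btla, Cd27 and Traf5 are lowest in VAT WT; the Traf5 mean is 8.59 RPKM in VAT KO, against 4.44 RPKM in VAT WT.

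Signalling genes downstream of the receptors were taken from lists of 22 TRAFs and death domain adaptors and 17 NF-kB subunits, kinases and inhibitors, all of which were in the table and tested. Of the 22, 0 were higher and 3 lower in VAT KO than in spleen KO, and 1 was higher and 6 lower in VAT WT than in spleen WT. Counted in either direction, these shares of the list were near the 14.6% and 26.1% called among all genes. By direction, 7.65% of all genes were called higher and 6.94% lower in KO, and 10.7% higher and 15.4% lower in WT. Traf5, an adaptor of OX40, CD27 and the lymphotoxin beta receptor, was lower in VAT (-1.12 ± 0.22 in KO, adjusted p = 0.00385, and -1.67 ± 0.22 in WT, adjusted p = 0.000124). Daxx, which binds the death domain of Fas, was lower too (-0.83 in KO and -0.97 in WT), as was Rnf31, the ubiquitin ligase HOIP (-0.58 and -0.61), and in WT also Tank, a binding protein of TRAFs (-0.75). Between the genotypes 0 of 22 passed in either tissue. Traf5 stood at 6.55, 8.54 and 10.7 RPKM in VAT KO and 3.97, 3.98 and 5.36 RPKM in VAT WT (0.81 ± 0.19, limma adjusted p = 0.143). Its groups did not overlap. Rnf31 followed by p at 0.18 (adjusted p = 0.956). In spleen the smallest p-values were those of Fadd, the adaptor of Fas, at -0.87 ± 0.25 (limma adjusted p = 0.549) and of Traf3 at 0.51 ± 0.27 (limma adjusted p = 0.625).

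Of the 17 NF-kB genes, 4 were higher and 1 lower in VAT KO than in spleen KO, and 4 higher and 2 lower in VAT WT than in spleen WT. Among all genes 7.65% were called higher and 6.94% lower in KO, and 10.7% higher and 15.4% lower in WT. The highest were feedback inhibitors and induced factors, Tnfaip3 (A20) at 3.97 in KO and 4.35 in WT, Nfkbiz at 2.94 and 2.83, and Nfkbia at 1.90 and 2.06. Tnip1, a partner of A20, was the lower gene in KO (-0.69, adjusted p = 0.00956). The 3 higher genes named were higher in the same libraries as the 13 immediate early genes given above. Relb, the NF-kB subunit that the lymphotoxin beta receptor activates, was lower in VAT WT than in spleen WT (-1.49 ± 0.22, adjusted p = 0.00031). It stood at 14.5, 12.9 and 12.8 RPKM in VAT KO and 6.06, 9.46 and 11.3 RPKM in VAT WT (0.57 ± 0.19, limma adjusted p = 0.432), and at 17.4 and 15.4 RPKM in spleen KO and 26.7 and 25.8 RPKM in spleen WT (-0.65 ± 0.24, limma adjusted p = 0.594). None of the 17 passed between the genotypes in either tissue, with Rel at 0.62 ± 0.32 in VAT (limma adjusted p = 0.786) and Ikbkg at 0.45 in spleen (limma adjusted p = 0.659) next to Relb by p. The Relb groups did not overlap in either tissue, and the directions were opposite, with an interaction of 1.22 ± 0.31 that did not pass (limma adjusted p = 0.534).

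Genes whose pattern was most like that of a member were ranked by Pearson's r of log2(RPKM + 1) over the 10 libraries, among 6627 other genes that averaged 5 RPKM or more. For Lta they were Iigp1, Ms4a4c and Apol7b (r = 0.993, 0.991 and 0.989). For Fas they were Ctss, Rbmxl1 and Hnrnpf (r = 0.992, 0.990 and 0.987). For Ltb they were Psmb10, Psmb9 and Tesc (r = 0.993, 0.992 and 0.991). The 10 libraries fall into 2 tissues, so a high r is also reached by genes that share no more than the tissue difference.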

How the data were processed

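RNA of sorted Tregs was sequenced from SMART-seq v4 cDNA and Nextera XT libraries, which do not mark strand, per the labels' protocols. STAR and mm10 are named in the submitters' processing notes. For the read counter, the gene models and the filter that left 10992 genes, nothing is given in the sources used here, so their effect is unknown. The authors deposited 1 table of RPKM per gene and sample, per the file headers. Of 11 samples in the labels, 10 have a column. Spleen KO replicate 1 was not analysed here, and 1 further column, headed as replicate 1 of spleen WT, matches no sample in the labels and was not used. Whether these 2 are the same library is unknown.

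Values were analysed as log2(RPKM + 1) in R 4.3.3 with limma 3.58.1, over the 10429 genes with at least 1 RPKM in at least 2 libraries, in 1 fit with 4 group means, no covariate and a trended prior (6 residual and 6.44 prior degrees of freedom). Tests were two-sided. P-values were adjusted by Benjamini-Hochberg over all genes of a comparison, with a threshold of 0.05. The fit was tested on simulated data. Coordinates and promoters are from RefSeq GRCm38.p6, matched by Entrez identifier (10987 of 10992 genes). All 9 members were described, and up to 4 called genes of each further list were named by smallest p, or 2 where none passed. For Lta, Fas and Ltb, the members with the smallest p over the 4 groups, the 3 most alike genes were named. Relb, Traf5, Btla, Fasl, Cd27, Tnfsf9 and Tnf were given by library because their values had been seen. The members and lists were chosen with earlier results of these data known. Python 3.11.15 with matplotlib 3.10.9 drew the figures.

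The alternatives were other pseudocounts, filters and scalings, only the compared groups, array weights, a robust prior, a block for the replicate numbers, and omission of each library.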

Additional observations from a re-analysis of the deposited data

How the results depend on the processing

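The VAT over spleen calls of Lta, Ltb, Fas, Tnfrsf1a and Tnfrsf18 were kept in both genotypes under every alternative run. Of 1056 member values recomputed over all comparisons, 1011 kept their direction and their side of the threshold, 3 lost a call, 11 gained one and 31 changed sign, none of which was called. With quantile normalization the sign changed for Tnfrsf1b in VAT KO against WT (0.0043), Lta in spleen KO against WT (0.014) and Ltb in the averaged KO effect (0.045), and with median ratios for Tnfrsf18 in the interaction (-0.015). Median ratios moved the median of all genes between VAT WT and spleen WT to 0.01, from -0.12 as deposited, and gave 57.4% higher among called genes instead of 41.0%; with it Tnfrsf4 passed there (0.54, adjusted p = 0.0124), as it did with only genes of a mean of at least 5 RPKM (0.38, adjusted p = 0.0452). Tnfrsf14 lost its WT call with array weights (-1.20, adjusted p = 0.101), and had no value under the filter at a mean of 5 RPKM.

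With 1 library left out, VAT KO against WT ran from -0.025 to 0.42 for Tnfrsf1a, -0.15 to 0.089 for Tnfrsf1b, -0.19 to 0.080 for Tnfrsf9 and -0.16 to 0.32 for Tnfrsf14. Spleen KO against WT ran from -0.20 to 0.59 for Tnfrsf1b, -0.19 to 0.65 for Tnfrsf14, -0.036 to 0.17 for Fas and -0.46 to 0.31 for Lta. For Tnfrsf1b, VAT over spleen ran from -0.24 to 0.55 in WT and -0.26 to 0.057 in KO. The interaction ran from -0.24 to 0.21 for Tnfrsf1a, -0.65 to 0.14 for Tnfrsf1b, -0.58 to 0.26 for Tnfrsf14 and -0.13 to 0.24 for Tnfrsf18, and the averaged KO effect from -0.13 to 0.27 for Tnfrsf1b, -0.058 to 0.36 for Tnfrsf14 and -0.18 to 0.077 for Ltb. Without spleen WT replicate 3, which leaves replicate 2 alone in that group, the averaged effect of Tnfrsf18 was -0.28, against -0.19 with all libraries.

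Members called with 1 library left out numbered 0 to 1 for VAT KO against WT, 0 to 2 for spleen, 6 to 8 for VAT KO against spleen KO, 7 to 7 for VAT WT against spleen WT, 0 to 2 for the interaction and 0 to 1 for the averaged effect. All genes called numbered 2 to 59, 0 to 1395, 747 to 2209, 1718 to 3892, 0 to 514 and 4 to 769 in the same order, with 44, 0, 1522, 2723, 0 and 8 when all libraries were used. The highest spleen, interaction and averaged counts came without spleen WT replicate 3, in the fit that rests on replicate 2 alone in that group. In VAT KO against WT, array weights called 1 member and 83 genes, and a pseudocount of 5 called 20 genes. In spleen and in the interaction a pseudocount of 0.1 called 2 genes each. Array weights called 5 genes for the averaged effect, 1318 for VAT WT against spleen WT and 2329 for VAT KO against spleen KO. The fit of the WT groups alone called 1749. The cause of these moves was not tested. With the replicate block, 0 members were called between genotypes, 7 between tissues in each genotype, and 39 genes for VAT KO against WT. Same-numbered libraries had correlations from -0.147 to 0.184 in their deviations from the group means. With 2 or 3 libraries in a group, these cannot show whether the numbers pair the libraries. Read depth, which sets the precision of low members such as Tnfrsf14, is unknown.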
